A study of Rattus norvegicus with 16 samples.

Results

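Motile cilia genes were followed in the lungs and the adipose tissue of rats with house dust mite (HDM)-induced allergic airway inflammation. The genes were 20 listed regulators and structural parts of the motile cilium together with all genes of the Dnah, Dnai and Cfap families. A gene counted as measured when a RefSeq transcript in the array design mapped to its symbol, and its probe with the highest mean signal in lung stood for it. In this way 45 of the 16678 named genes of the arrays were included, 13 of the 20 listed symbols and 32 of the 66 family symbols in the gene table. For 7 listed symbols (Rfx3, Mcidas, Ccno, Rsph4a, Hydin, Ccdc39 and Pifo) and for all dynein heavy chains other than Dnah1, no probe was matched and no value was analysed here. All animals were male Brown Norway rats, 7 weeks old. The model had a sensitization and a challenge phase of 3 weeks each. The 5 HDM rats had weekly injections under the skin (45 µg of HDM per dose, with Al(OH)3) in the first phase, and nasal doses of 120 µg on 3 days of every week in the second. The 3 control rats had saline in both phases, with Al(OH)3 in the injections. One array per rat and tissue was hybridised, 16 in all, with lung and adipose tissue taken from the same 8 rats. The depot of the adipose tissue was not given in the sources used here.

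A motile cilium beats because dynein motors slide the doublet microtubules of its axoneme against each other, while radial spokes, nexin links and a central apparatus shape the beat. In the airways these cilia stand on multiciliated epithelial cells and carry mucus outward, and the transcription factors Foxj1 and the RFX family switch on the genes for their parts. Most Cfap proteins line or link the doublet microtubules, or help to build the dynein arms.

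Promoter windows from RefSeq (build GRCr8, 250 bases before to 50 bases after the start of the gene, read on the strand of the gene) were available for 35 of the 45 genes, in 39 windows. They were searched on both strands for the RFX motif GTTGCCA and the forkhead motif GTAAACA. The RFX letters were present in 6 of the 39 windows (15.4%), against 4.56% of all 33469 windows in the table. The forkhead letters were present in 3 (7.69%), against 3.78% of all windows. Neither motif overlapped the other. Shown here are Drc1 (chr6:31779207-31779506, minus strand), Tekt1 (chr10:57479072-57479371, minus strand) and Cfap97d2 (chr16:82529001-82529300, minus strand), which carry the RFX letters, and Spef2 (chr2:60421801-60422100, minus strand), which carries the forkhead letters. They were chosen because all 4 genes were higher in lung than in adipose tissue, so they cannot show whether motif and level go together. Capitals mark the motif.

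Drc1: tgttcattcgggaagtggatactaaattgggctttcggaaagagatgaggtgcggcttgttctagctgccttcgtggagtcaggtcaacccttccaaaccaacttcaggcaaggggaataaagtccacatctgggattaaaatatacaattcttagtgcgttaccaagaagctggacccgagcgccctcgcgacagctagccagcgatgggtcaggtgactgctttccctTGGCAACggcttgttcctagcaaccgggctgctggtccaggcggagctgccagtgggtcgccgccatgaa

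Tekt1: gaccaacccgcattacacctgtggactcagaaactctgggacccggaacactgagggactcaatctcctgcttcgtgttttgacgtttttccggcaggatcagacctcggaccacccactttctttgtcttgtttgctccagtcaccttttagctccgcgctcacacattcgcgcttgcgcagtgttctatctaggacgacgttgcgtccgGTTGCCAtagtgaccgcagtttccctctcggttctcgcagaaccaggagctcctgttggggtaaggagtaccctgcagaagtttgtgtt

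Cfap97d2: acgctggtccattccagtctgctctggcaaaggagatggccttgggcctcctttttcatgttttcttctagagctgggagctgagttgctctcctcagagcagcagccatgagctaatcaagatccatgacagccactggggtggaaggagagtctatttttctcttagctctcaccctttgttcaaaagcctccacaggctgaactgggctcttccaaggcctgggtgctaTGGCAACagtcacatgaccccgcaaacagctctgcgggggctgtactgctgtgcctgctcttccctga

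Spef2: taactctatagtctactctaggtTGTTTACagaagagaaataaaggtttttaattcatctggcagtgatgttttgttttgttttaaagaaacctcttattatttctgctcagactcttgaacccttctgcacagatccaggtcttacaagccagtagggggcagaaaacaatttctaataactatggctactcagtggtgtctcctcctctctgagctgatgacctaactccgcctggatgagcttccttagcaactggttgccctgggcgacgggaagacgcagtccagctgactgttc

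In Drc1, Tekt1 and Cfap97d2 the RFX letters began 20, 39 and 18 bases before the start, and in Spef2 the forkhead letters began 227 bases before it. The RFX letters were also found in Cfap161, Cfap20 and Cfap298, and the forkhead letters in Cfap20 and Cfap251. Of these genes not shown, Cfap298 differed little between the tissues (log2 difference, lung minus adipose tissue, 0.37). Cfap20 was higher in lung in all 8 rats, by 1.13. Cfap251 and Cfap161 differed by 1.73 and 3.28. A match of letters is a description of the sequence and not evidence of binding.

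Values are the log2 signal of a probe relative to the 75th percentile of its array, so that 0 is the signal of the probe at that rank. In lung, 42 of the 45 genes were well above background on all 8 arrays. Spag6 and Cfap68 reached that level on no array of either tissue, and Cfap97d1 was so on 2 lung arrays. In adipose tissue, 14 genes were well above background on all 8 arrays, 22 on some and 9 on none, and no gene was saturated on any array. The share of probes above background was 62.1% to 68.9% on the lung arrays and 50.6% to 60.3% on the adipose arrays. All 11 alveolar markers were above background on every lung array and 3 of them on every adipose array. All 8 adipocyte markers were above background on every adipose array and 6 of them on every lung array. Being above background thus did not separate the tissues, but the levels did. The median log2 difference, lung minus adipose tissue, was 10.21 over the alveolar and -7.28 over the adipocyte markers. HDM rat 2 had 1711 outlier spots on its adipose array, against 410 to 566 on the other adipose arrays, and its Tekt1 value was among those left out.

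In lung, none of the 45 motile cilia genes was called different between HDM and control rats (limma, Benjamini–Hochberg adjusted p under 0.05 and over 1.5-fold), against 0.855% of all 45598 probes (0.482% higher and 0.373% lower). The median log2 fold change over the 45 genes was 0.02, against 0.00 over all probes, with 28 values above and 17 below 0. The values ranged from -0.55 for Foxj1 to 0.53 for Cfap68, and the smallest adjusted p was 0.301. At an unadjusted p under 0.05 there were 2 genes, Tekt2 and Foxj1, against 10.2% of all probes. This count ran from 0 without control rat 3 to 6 without HDM rat 4. The groups did not overlap at 2 genes, Tekt2 and Cfap410, both with all HDM rats higher, against 9.61% of all probes (4.65% with HDM rats higher and 4.97% with HDM rats lower). The same lungs held 6 neutrophil genes called higher in HDM rats out of 9 measured, against 0.482% of all probes. The median log2 fold change over the 9 was 2.46. Among the 9, Fpr1 went the other way at -0.66 ± 0.14 and was not called (adjusted p = 0.0877 by limma), with every HDM rat below every control rat. In whole tissue, the number of ciliated cells and the RNA per cell cannot be told apart. With 5 and 3 rats, a missed threshold does not show that values were equal. The standard errors of the fold changes lay between 0.09 and 0.50.

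**Figure D1:**
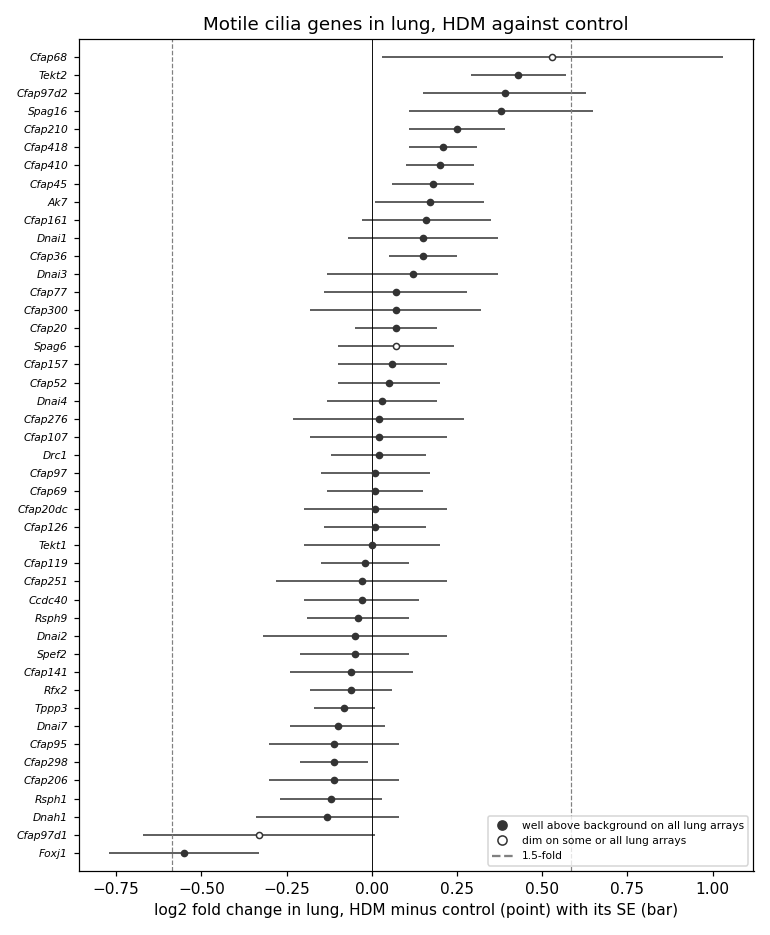
Log2 fold change in lung, HDM minus control (horizontal axis), for the 45 motile cilia genes, with bars for the standard error (5 HDM and 3 control rats). All 45 points lie inside the 1.5-fold lines, from -0.55 for Foxj1 to 0.53 for the dim probe of Cfap68.

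Foxj1, the forkhead factor that switches on the motile cilia program, was measured in the lungs of the HDM rats 1 to 5 at 1.5, 1.43, 1.11, 0.92 and 1.89 and in those of the control rats 1 to 3 at 2.14, 1.84 and 1.78. The 4 HDM rats numbered 1 to 4 lay below all control rats, and HDM rat 5 lay among them. The log2 fold change was -0.55 ± 0.22 (SE, p = 0.0396 and adjusted p = 0.448 by limma, exact permutation p = 0.0893), which did not pass the threshold. A second probe for the same Foxj1 transcript gave -0.22 (adjusted p = 0.764 by limma). HDM rats 1 to 4 shared row 1 of the slide, while HDM rat 5 and the 3 control rats shared row 2. With the row as a block, the Foxj1 fold change was -0.03, the value of HDM rat 5 against the control rats. Rfx2, an RFX factor, ranged from 0.01 to 0.47 in HDM lungs and from 0.25 to 0.33 in control lungs, and the groups overlapped (-0.06 ± 0.12, adjusted p = 0.983 by limma).

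Tekt2 encodes a tektin, a filament protein within the doublet microtubules. Its values were 1.86, 1.88, 2.23, 1.67 and 2.06 in HDM lungs and 1.53, 1.55 and 1.45 in control lungs. Every HDM rat was above every control rat. The difference of 0.43 ± 0.14 did not pass the adjusted threshold (SE, p = 0.0154, adjusted p = 0.301 by limma, exact permutation p = 0.0536), and it was 0.55 with the row as a block. Tekt1, of the same family, gave -1.52, -1.50, -1.59, -1.54 and -0.85 in HDM lungs and -1.18, -1.59 and -1.43 in control lungs, so that HDM rat 5 alone stood above the control rats. Its difference was 0.00 ± 0.20 (adjusted p = 1 by limma). Tppp3, a microtubule-binding protein abundant in ciliated cells, varied least among the genes, by 0.24 over all 8 lungs, with 6.97 to 7.18 in HDM and 7.14 to 7.21 in control rats (-0.08 ± 0.09).

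The remaining listed structural genes also overlapped between the groups in lung. Rsph1 and Rsph9, parts of the radial spoke head, differed by -0.12 ± 0.15 and -0.04 ± 0.15. Of the central apparatus genes, Spef2 differed by -0.05 ± 0.16 and Spag16 by 0.38 ± 0.27, the latter with -4.36, -4.18, -4.40, -4.96 and -3.61 in HDM lungs and -4.61, -4.82 and -4.61 in control lungs. Ccdc40, part of the ruler that sets the spacing of the dynein arms, differed by -0.03 ± 0.17. Drc1, of the nexin link, differed by 0.02 ± 0.14. Ak7, an adenylate kinase of the axoneme, differed by 0.17 ± 0.16. The adjusted p-values by limma of these 7 genes lay between 0.782 and 1.

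The dynein chains stood close to 0 as well. Dnah1, a heavy chain of the inner arm, gave -0.49, -0.49, -0.82, -0.35 and 0.15 in HDM lungs and -0.15, -0.21 and -0.45 in control lungs, a difference of -0.13 ± 0.21. Its other probes gave 0.08 and -0.06. Dnai1 and Dnai2, the intermediate chains of the outer arm, differed by 0.15 ± 0.22 and -0.05 ± 0.27, and Dnai3, Dnai4 and Dnai7 by 0.12, 0.03 and -0.10. At Dnai2, HDM rat 5 (0.03) was the highest of the 8 lungs and the other HDM rats lay between -1.15 and -0.85.

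Among the family genes well above background on all lung arrays, the highest fold changes were those of Cfap97d2 (0.39 ± 0.24), Cfap210 (0.25 ± 0.14), Cfap418 (0.21 ± 0.10), Cfap410 (0.20 ± 0.10) and Cfap45 (0.18 ± 0.12). The lowest were Dnah1 and, below 0 by 0.11 or less, Cfap206, Cfap298, Cfap95 and Dnai7. Cfap410, a protein of the cilium base, gave -0.33, -0.15, -0.32, -0.16 and -0.16 in HDM lungs and -0.46, -0.33 and -0.48 in control lungs. The nearest values, those of HDM rat 1 and control rat 2, were both -0.33 after rounding, and the difference did not pass the threshold (adjusted p = 0.589 by limma, exact permutation p = 0.0357). A second probe for Cfap97d2 gave 0.86 (adjusted p = 0.218 by limma).

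Other genes of the pathway, in lists that hold none of the 45, were measured beside them. Of 49 further axoneme and dynein assembly genes, none was called in lung and the median log2 fold change was 0.00. Of these, 2 had an unadjusted p under 0.05, namely Nme7 at 0.77 (adjusted p = 0.118 by limma) and Spag8 at 0.41 (adjusted p = 0.476 by limma). Of 13 genes of the program that makes multiciliated cells and their basal bodies, none was called and the median was -0.12. Of 36 genes of intraflagellar transport and the primary cilium, which most cell types use, none was called and the median was 0.01.

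Differences between rats were larger than the difference between the groups in lung. Over the 42 genes above background, HDM rat 5 was the highest of the 8 lungs at 28 genes, against 9.5% of all probes above background on every lung array, and HDM rat 4 was the lowest at 21, against 19.7%. These tallies were chosen after the values were seen. The mean over the 42 genes was -0.25, -0.32, -0.36, -0.52 and 0.02 in HDM rats 1 to 5 and -0.21, -0.40 and -0.37 in control rats 1 to 3. The HDM rats thus lay on both sides of the control rats. With the slide row added as a block, the median fold change of the 45 genes became 0.31, which is HDM rat 5 against the 3 control rats.

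The marker means of other airway cells were also highest in HDM rat 5, but their lowest rat was not always that of the cilia genes. The 5 club cell markers had a mean of 6.12, 5.67, 4.76, 4.77 and 6.81 in HDM rats 1 to 5 and of 5.74, 5.53 and 5.43 in control rats. HDM rat 5 was the highest here too, and HDM rats 3 and 4 the lowest. In HDM rat 2 Bpifa1 was left out as an outlier spot, so that its mean rests on 4 markers and cannot be set beside the others. In the lungs with all 5 markers the summed linear level was 331 to 716 in HDM and 382 to 419 in control rats. Within that list, Scgb3a1, a secretoglobin of the upper airways, stood at 4.00, 3.82, 2.88, 2.29 and 5.59 in HDM and at 3.82, 2.99 and 3.02 in control lungs, while Scgb1a1, the main club cell secretoglobin, stayed within 7.62 to 7.99 in all 8. The 6 goblet cell markers measured of 8 (summed level 3.77 to 31.1 in HDM and 5.25 to 11.6 in control lungs) and the 5 basal cell markers (8.61 to 11.6 and 8.22 to 9.08) also had their highest mean in HDM rat 5, at -0.55 and 0.08. The lowest mean of both lists was that of HDM rat 3, at -2.54 and -2.20, with HDM rat 4 at -1.94 and -2.14. Single markers did not all follow these means. Tp63 of the basal list was lowest in HDM rat 5 (2.78). Spdef of the goblet list (0.98) lay below control rats 1 and 2 there (1.23 and 1.18). Scgb3a2 of the club list (6.74) lay below HDM rat 3 (6.88). Apart from these and Scgb1a1, every marker of the club, goblet and basal lists was highest in HDM rat 5. The high was not particular to airway cells. The 8 adipocyte markers also had their highest lung mean in HDM rat 5 (0.86, against -1.93 to 0.15 in the other lungs). No gene of the club, goblet, basal and adipocyte lists was called in lung between HDM and control. The part of these lists in the values of the cilia genes was not tested.

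The 10 genes outside the 45 whose level followed the mean of the 42 genes most closely over the 8 lungs were Pecr, Spag6l, Agr2, Scgb3a1, Ropn1l, Drc3, Vwa5b1, Cabcoco1, Ppp4r4 and Sbp. Their Pearson r was between 0.953 and 0.98, the highest of 11877 genes compared on the same 8 arrays. Spag6l, Ropn1l and Drc3 encode axoneme proteins, and Agr2 and Scgb3a1 belong to the goblet and club cell lists. These are descriptions over 8 arrays.

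Lung differed from adipose tissue far more than HDM from control. Of the 45 genes, 36 were called higher in lung than in adipose tissue of the same rats and 4 lower (limma on the within-rat differences, Benjamini–Hochberg adjusted p under 0.05 and over 1.5-fold). Of all probes, 14.9% were called higher and 39.4% lower in lung, 54.3% together. At an unadjusted p under 0.05 there were 44 of the 45 genes, against 68.3% of all probes. The median log2 difference, lung minus adipose tissue, was 2.27 over the 45 genes and -0.50 over all probes. At 36 genes lung was above adipose tissue in every rat with both values, against 14.5% of all probes. All 8 arrays of a tissue shared 1 slide, so tissue and slide cannot be told apart.

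**Figure D2:**
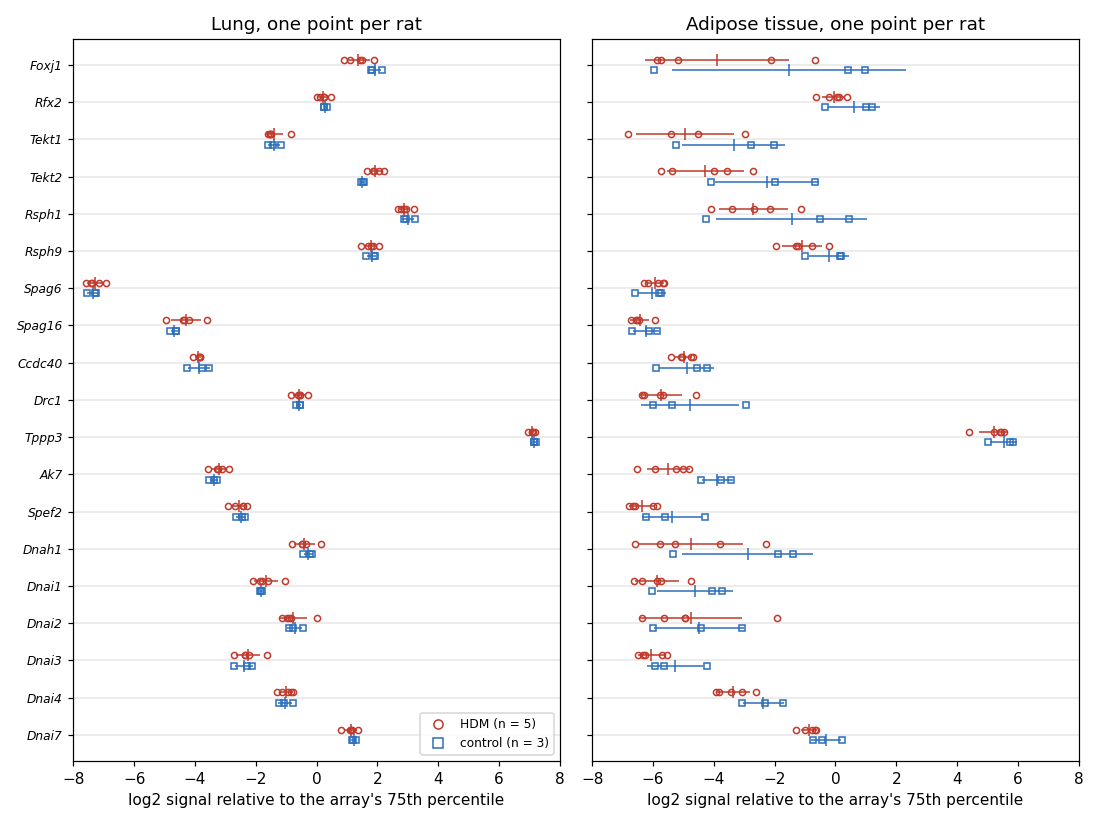
Log2 signal relative to the 75th percentile of the array (horizontal axis) for the 13 listed genes and the 6 dynein chains, in lung (left) and adipose tissue (right), 1 point per rat, with the group mean (tick) and SD (bar). In lung the groups overlap at every gene shown except Tekt2, where all HDM rats are higher. The adipose values of genes such as Foxj1 spread over 6.93 log2 units.

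The largest differences among genes above background on all lung arrays were found for Cfap107, Rsph1, Tekt2, Drc1 and Foxj1. Cfap107, a protein inside the doublet microtubules, ranged from -0.94 to -0.05 in the 8 lungs and from -6.64 to -5.23 in adipose tissue, where no array had it well above background. With the scaling used here it was therefore at least 24.7-fold higher in lung (log2 difference 5.56 ± 0.16, adjusted p = 2.73e-07 by limma). This bound sets the mean in lung against the lowest signal well above background on each adipose array, or the signal of the probe itself where that was higher.

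Rsph1 lay between 2.67 and 3.23 in lung and gave -1.15, -4.08, -3.41, -2.69 and -2.16 in adipose tissue of HDM rats and -0.51, -4.26 and 0.44 in that of control rats. The tissues did not overlap (5.03 ± 0.53, adjusted p = 0.000121 by limma), although 2 adipose arrays were not above background. Tekt2 was called higher in lung (4.99 ± 0.49, adjusted p = 8.24e-05 by limma), with 5 of the 8 adipose arrays above background. Drc1 was called higher too (4.68 ± 0.38, adjusted p = 3.42e-05 by limma), but only 1 adipose array, that of a control rat, was above background. Where adipose arrays were at background, the size of a difference depends on the background of those arrays, and it is not a measured fold.

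Foxj1 in adipose tissue gave -0.66, -5.73, -5.87, -5.17 and -2.12 in HDM rats and 0.41, -5.96 and 0.97 in control rats, with 4 arrays above background. Even its highest adipose value, in control rat 3, lay below that rat's lung value of 1.78. The log2 difference was 4.36 ± 0.89 (adjusted p = 0.00329 by limma), but in control rats alone it was 3.45 and missed the threshold (adjusted p = 0.134 by limma). The second Foxj1 probe did not show it. That probe was above background on all 16 arrays, had a mean of -1.69 in lung and -1.41 in adipose tissue, and differed by -0.26 (adjusted p = 0.0996 by limma), so the 2 probes for Foxj1 disagree.

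**Figure D3:**
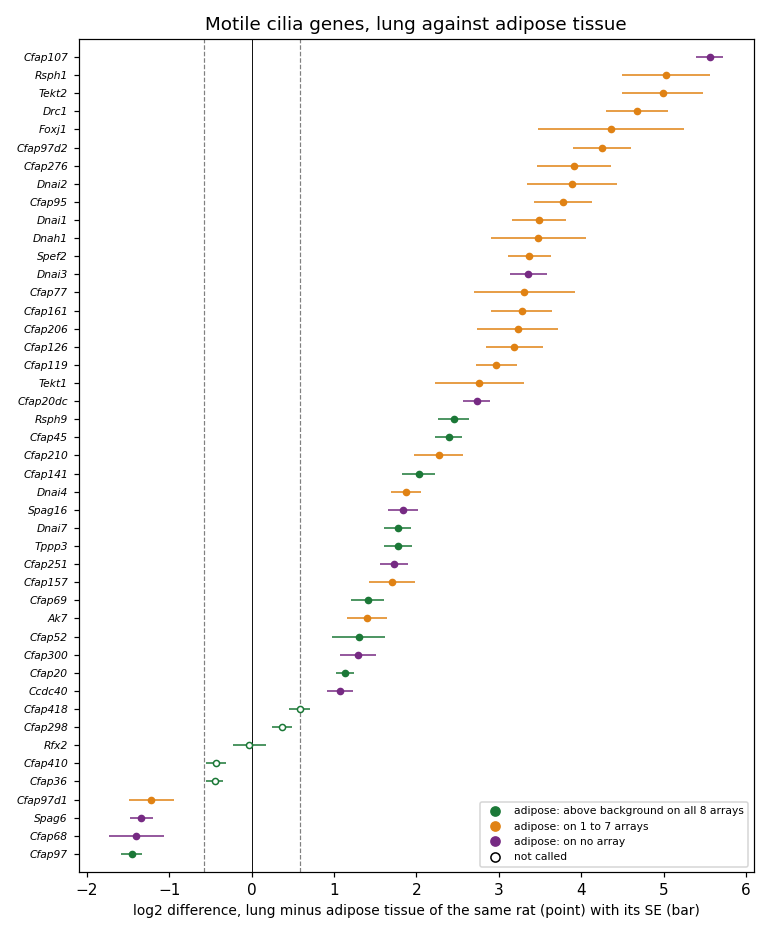
Log2 difference, lung minus adipose tissue of the same rat (horizontal axis), for the 45 motile cilia genes, with bars for the standard error (8 rats), filled where called and colored by the number of adipose arrays well above background. The genes run from -1.46 for Cfap97 to 5.56 for Cfap107, and the 5 open points are the genes not called.

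By structure, the radial spoke genes Rsph1 and Rsph9 were both called higher in lung, at 5.03 and 2.45. All 5 dynein intermediate chains were called higher, among them Dnai7, above background on every array (1.77 ± 0.16), and Dnai4, above background on 7 adipose arrays (1.87 ± 0.18). The probe of Dnah1 with the highest signal in lung was called higher (3.48 ± 0.58, 4 adipose arrays above background), but its other probes gave 1.53 and -0.91, both without any adipose array above background and with 7 and 2 lung arrays above it. The probes of Dnah1 thus disagree. Of the 26 Cfap genes, 19 were called higher and 3 lower, with a median of 1.88. Rsph9 gave 1.47 to 2.07 in lung and -1.97 to 0.18 in adipose tissue, and was above background on every array (2.45 ± 0.19, adjusted p = 2.86e-05 by limma). Tppp3, also above background on every array, gave 6.97 to 7.21 in lung and 4.40 to 5.83 in adipose tissue (1.77 ± 0.17, adjusted p = 7.69e-05 by limma). Over the 14 genes above background on all 16 arrays, 8 were called higher and 1 lower in lung, with a median difference of 1.22. Over all probes 14.9% were called higher and 39.4% lower, and those above background on all 16 arrays had a median of -0.16. The share called among the latter is not given here.

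For 6 further genes not above background on any adipose array, lung was higher by at least 6.08-fold at Dnai3, 3.35-fold at Cfap20dc, 3.08-fold at Cfap251, 2.44-fold at Cfap300, 1.89-fold at Ccdc40 and 1.55-fold at Spag16. These bounds hold for the scaling used here only. After normexp background correction with quantile normalization, Cfap20dc, Cfap251, Cfap300, Ccdc40 and Spag16 fell below 1.5-fold. A second probe for Ccdc40 gave a log2 difference of 0.57 and was not called (adjusted p = 0.0571 by limma). It was above background on 6 lung arrays and on no adipose array. Spef2 and Dnai1 were called higher in lung as well, but each was above background on only 1 adipose array, so that no size is given. Tekt1 differed by 2.76 ± 0.54 over the 7 rats with both values, and by 1.95 with an adjusted p of 0.0748 by limma in control rats alone.

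The lowest signed differences, lung minus adipose tissue, among genes above background on all lung arrays were those of Cfap97, Cfap36, Cfap410, Rfx2 and Cfap298, each above background on every adipose array as well. Cfap97 was lower in lung in all 8 rats, at -1.31 to -0.77 against 0.05 to 0.76 in adipose tissue (-1.46 ± 0.13, adjusted p = 4.65e-05 by limma). Cfap36, Cfap410 and Cfap298 differed by -0.45, -0.43 and 0.37 and Cfap418 by 0.58, all below 1.5-fold. Rfx2 differed by -0.03 ± 0.20 (adjusted p = 0.9 by limma), with 0.01 to 0.47 in lung and -0.63 to 1.21 in adipose tissue. Cfap36, Cfap410, Cfap298, Cfap418 and Rfx2 were the 5 genes not called.

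The other genes called lower in lung were dim. Spag6 (-1.34) and Cfap68 (-1.40) were not well above background in either tissue, and Cfap97d1 (-1.22) was so on 2 lung and 4 adipose arrays. Probes not above background on any of the 16 arrays had a median difference of -1.19, and probes above background on all 16 had one of -0.16. No direction is given for Spag6 and Cfap68.

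The fixed lists gave the same comparison for neighbouring genes. Of the 49 further axoneme and assembly genes, 36 were called higher and 4 lower in lung, with a median difference of 2.08. Sntn, a protein of the ciliary tip, differed by 6.33 (adjusted p = 0.000129 by limma), and Dynlrb2, a dynein light chain, by 5.66 (adjusted p = 0.000195 by limma). Of the 13 multiciliation genes, 7 were higher and 1 lower, with a median of 0.91. Of the 36 transport and primary cilium genes, 8 were higher and 2 lower, with a median of 0.21. Beside these lists, 14.9% of all probes were called higher and 39.4% lower in lung, with a median of -0.50.

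In adipose tissue, none of the 45 genes was called different between HDM and control rats (limma), and none of all 45598 probes was, which is 0%. An unadjusted p under 0.05 was found for 8 genes, all lower in HDM rats, against 9.9% of all probes. The median log2 fold change was -0.88 over the 45 genes, against -0.15 over all probes. Of the 45 genes 43 were negative and 2 positive, while 35.8% of all probes were positive. Over the 14 genes well above background on all arrays of both tissues the median was -0.41, with 13 negative. The groups did not overlap at Ak7, Cfap251 and Cfap45, all lower in HDM rats, against 6.26% of all probes (4.72% with HDM rats lower and 1.54% with HDM rats higher). Cfap45, a protein inside the doublet microtubules, gave -1.84, -1.80, -1.24, -1.97 and -2.04 in HDM rats and -1.02, -1.02 and -0.29 in control rats (-1 ± 0.26, adjusted p = 0.327 by limma, exact permutation p = 0.0179). Ak7 gave -5.01, -5.93, -5.25, -4.81 and -6.53 in HDM rats and -3.45, -4.44 and -3.76 in control rats (-1.62 ± 0.43, adjusted p = 0.341 by limma). Ak7 was above background on 2 adipose arrays and Cfap251 on none. Of the 56 splits of 8 rats into 5 and 3, the smallest exact p possible is 0.0179.

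The adipose values also differed between single rats within the groups. Of the 42 genes (41 in HDM rat 2, where Tekt1 had no value), 28, 16, 20, 21 and 24 were above background in HDM rats 1 to 5 and 30, 17 and 35 in control rats 1 to 3. Control rat 2 thus stood with the HDM rats, and HDM rat 1 near control rat 1. Control rat 3 was the highest at 25 of the 42 genes and control rat 1 at 10, against 7.25% and 24.1% of all probes above background on every lung array. At 19 of the 44 genes with a value in all 8 rats, the 3 highest rats were HDM rat 1, control rat 1 and control rat 3, against 5.61% of all probes, a tally chosen after the values were seen. Without control rat 2, 25 genes instead of 8 had an unadjusted p under 0.05, without HDM rat 1 it was 14, and without any one of the other rats it was 3 to 7, while none was called. A fit without HDM rat 1 and the control rats 1 and 3 was also chosen after the data were seen. It took out the rats seen to be highest and left 1 control rat. That fit therefore cannot tell differences between rats from one between the groups, and no count is given.

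**Figure D4:**
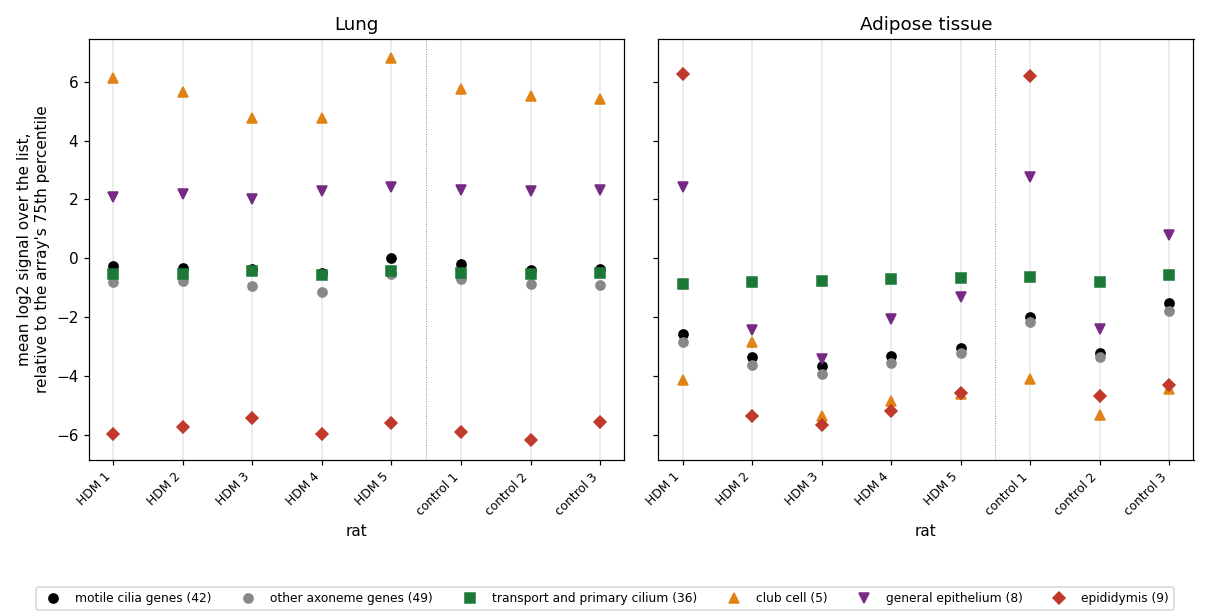
Mean log2 signal relative to the 75th percentile of the array (vertical axis) over the genes of each list, per rat, in lung (left) and adipose tissue (right). In adipose tissue the motile cilia genes run from -3.66 in HDM rat 3 to -1.52 in control rat 3, the club cell mean of HDM rat 2 in lung rests on 4 markers, and the epididymis markers stand above 6 in HDM rat 1 and control rat 1 and below -4 in the others.

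Markers of other tissues differed between the same adipose samples. The 9 epididymis markers measured of 12 had a mean of 6.26 in HDM rat 1 and 6.21 in control rat 1, all 9 above background, and of -5.67 to -4.31 in the other 6 rats. Their summed linear level was 0.259 to 3040 in HDM and 0.516 to 3810 in control rats. In control rat 3 Lcn5, an epididymal lipocalin, was at 4.82, while Crisp1, an epididymal secretory protein, was at -6.80 and 3 of the 9 markers were above background. The 8 general epithelial markers had a mean of 2.42 in HDM rat 1, 2.76 in control rat 1, 0.79 in control rat 3 and -3.44 to -1.32 in the others (summed level 8.08 to 62.2 in HDM and 13.1 to 74.1 in control rats). The 12 male germ cell markers had a mean of -2.11 in HDM rat 1, -1.21 in control rat 1, -4.02 in control rat 3 and -5.33 to -4.92 in the others (summed level 0.367 to 13.0 and 0.648 to 20.8), where the lowest mean and sum, those of HDM rat 2, rest on 11 markers because Ddx4 had no value there. Their part in the adipose values of the cilia genes was not tested. Other axoneme genes followed the same rats, with 45 of 49 above background in control rat 3, 34 in control rat 1, 32 in HDM rat 1 and 20 to 26 in the others. The transport and primary cilium list was flat, between -0.87 and -0.56 in all 8 adipose samples.

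The change with HDM was also compared between the tissues, as the difference of the within-rat differences. None of the 45 genes was called (limma), against 0.00219% of all probes, which is 1 probe. An unadjusted p under 0.05 was found for 9 genes, against 7.74% of all probes, and the median was 0.91 against 0.15 over all probes, with the change in lung above that in adipose tissue at 43 of the 45 genes, against 61.7% of all probes. Leaving out 1 rat gave 3 (without control rat 3) to 21 (without control rat 2).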

How the data were processed

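RNA from the lungs and adipose tissue of 8 rats was measured on 16 Agilent one-color rat arrays. The authors deposited the spot intensity of each array, extracted with Agilent Feature Extraction 12.0.3.1, background-subtracted and detrended, without normalization between arrays. Normalized log2 values of every array were deposited too, of which 99.97% in lung and 99.85% in adipose tissue lay within 0.1 of the values computed here after centering. In 39 cells it held a month in place of a value. Spot marks in the deposited files gave outliers and spots well above background.

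Control probes and outlier spots were left out, repeated spots were averaged as log2 values, and each array's 75th percentile was then subtracted. Groups were taken from the labels, and lung and adipose samples were paired by the rat the labels name (correlation of their deviations -0.104 to 0.113). HDM and control were compared with limma 3.58.1 (R 4.3.3), adjusted over 45598 probes, and called at adjusted p under 0.05 and over 1.5-fold. For single genes, two-sided exact permutation tests were run. Lung and adipose tissue were compared by limma on the within-rat differences. The fits were tested on simulated data. Figures were drawn with matplotlib in Python.

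Symbols came from the array design's RefSeq accessions through the GRCr8 gene table, which named 21229 probes. The 20 listed genes, every gene called between HDM and control, the 5 highest and 5 lowest family genes in lung, the 5 highest and 5 lowest signed tissue differences and the 10 genes closest to the mean were named. Other genes were named after their values were seen, or beside their list. The genes and lists were chosen with earlier results of these data known. Replicates are separate rats, and their number limits the precision. Alternatives covered other tests, scalings, background correction, filters, probes and blocks, each rat left out in turn, and 2 sets of rats added after seeing the data.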

Additional observations from a re-analysis of the deposited data

Results flagged for a closer look

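In groups of 5 rats a sample was singled out when its gap to the nearest other sample took up more than 0.71 of the range of the group, which chance gives in about 1 of 20 groups. Of 90 groups, 1 of which held 4 rats and had a stricter limit, 5 in lung and 3 in adipose tissue were singled out. In lung, HDM rat 5 stood above the other HDM rats at Tekt1 (-0.85, next -1.50), Cfap126 (1.07, next 0.61), Cfap52 (0.96, next 0.55) and Dnai2 (0.03, next -0.85), and HDM rat 1 stood below them at Ccdc40 (-4.08, next -3.88). In adipose tissue, HDM rat 1 stood below the other HDM rats at Tppp3 (4.40, next 5.20) and Cfap141 (-3.01, next -2.24) and above them at Cfap298 (2.33, next 1.76).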

How the results depend on the processing

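No motile cilia gene was called between HDM and control in lung or adipose tissue, or for the difference of the changes, under any alternative run. The number called between lung and adipose tissue was 30 (normexp together with quantile normalization) to 44 (no fold threshold), and 40 to 41 when 1 rat was left out. The median fold change in lung, 0.02, was -0.05 to 0.08 when 1 rat was left out, 0.31 with the slide row added as a block and 0.31 in row 2 alone, a setting added after seeing the data. The median difference between lung and adipose tissue, 2.27, was 2.05 to 2.37 when 1 rat was left out, 1.03 after normexp with quantile normalization and 2.87 in HDM rats alone. The cause of these shifts was not tested. The Foxj1 difference reversed to -0.26 with the probe that was brightest in adipose tissue. The median difference of all probes, -0.50, was -0.10 after quantile normalization and -0.04 with scaling to Gapdh and Hprt1. In control rats alone, Ak7 (0.50), Cfap157 (1.35), Cfap276 (2.92), Cfap52 (0.67), Cfap69 (0.93), Cfap77 (2.22) and Dnah1 (2.61) were no longer called higher in lung. After normexp with quantile normalization, Spag16 (0.33), Ccdc40 (0.25), Ak7 (0.31), Cfap157 (0.57), Cfap20dc (0.47), Cfap251 (0.50) and Cfap300 (0.34) fell below 1.5-fold.

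Control and HDM rats also share replicate numbers, but the deviations of same-numbered rats did not agree in lung (r -0.0782 to 0.0459) and gave 0.097 to 0.59 in adipose tissue, so the numbers were not taken as pairs. With the replicate block, 0 genes were called in lung and 0 in adipose tissue, as without it, and the median fold change in lung was -0.02. Without the pairing of tissues by rat (no replicate block), 40 genes were called between lung and adipose tissue and the median difference was 2.27. Low signal limits the adipose values, where no array had 9 of the 45 genes well above background.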
